A study of Mus musculus with 48 samples.

Results

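The genes most often used as internal standards in RT-qPCR were followed through blood and cortex of ovariectomized and stressed mice. They are Gapdh, Actb, B2m, Hprt, Tbp, Ppia, Ywhaz, Gusb and Pgk1, 9 of 34844 gene names on the array. They were found by gene name among the probes that are not controls, which gave 20 probes. Total RNA was measured on 48 single-colour Agilent arrays, 24 of the blood cell pellet and 24 of the medial prefrontal cortex (mPFC), from the same 24 mice. All mice were female C57BL/6J mice 17 weeks old, in 4 groups of 6. Control mice had a sham operation and no stress. CUMS mice had a sham operation followed by chronic ultra-mild stress (CUMS). OVX mice were ovariectomized and not stressed, and OVX+CUMS mice were ovariectomized and then exposed to CUMS. Stress began 2 weeks after surgery and lasted 6 weeks. Ovariectomy removes the ovaries and with them the main source of estrogen, and the sham operation leaves them in place.

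An RT-qPCR reference gene serves as the denominator of a relative expression value. It is useful only if its mRNA keeps the same level in all groups compared, because any shift in the reference is carried with the opposite sign into every target gene. The genes in common use come from unrelated cell functions. Gapdh and Pgk1 are enzymes of glycolysis, Actb is cytoplasmic actin, B2m is the light chain of MHC class I molecules and Hprt recycles purines. Tbp is the TATA-binding protein of general transcription, Ppia is cyclophilin A, a peptidyl-prolyl isomerase, Ywhaz is a 14-3-3 adaptor protein and Gusb is the lysosomal enzyme beta-glucuronidase. The study itself used a ribosomal protein gene, RPS29, as the RT-qPCR reference in human blood, so mouse Rps29 is given beside the members.

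A probe is a fixed sequence of 60 bases, and its signal depends on that sequence, so levels were compared only within a probe. Each gene is described by 1 main probe, its brightest on average among those detected in both tissues. Detected means present on all 24 arrays of a tissue and above a signal of 50 on at least 2. Of the 20 member probes, 19 were detected in blood and 20 in mPFC. Gapdh had 8 probes, Ywhaz 3, Gusb and Tbp 2 each, and the other 5 genes 1 each. The exception in blood was the second Tbp probe, A_51_P461828. The first 30 bases of the main probes that carried the group differences described below are as follows, as the array files give them, with positions of the whole probe in mouse build mm9.

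Actb, chr5:143665422-143665481, minus strand: tctaggcggactgttactgagctgcgtttt
Hprt, chrX:50374757-50374816, plus strand: gtgttggctgtattttcccactttcagtaa
Tbp, chr17:15654250-15654309, plus strand: gtacatacttttctttcttcagagtactct
Ppia, chr11:6319737-6319796, plus strand: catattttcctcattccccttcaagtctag

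Gapdh needs more care, since near-identical processed copies of it lie across the mouse genome. Its 8 probes are placed by the array design on chromosomes 6, 7, 8 and X, and 7 of them list at least 1 non-coding RNA accession beside the Gapdh mRNA. The main probe, A_55_P2097548, is assigned to a cDNA clone and placed at chr7:59003199-59003257. It overlaps 2 other Gapdh probes, and the window of 30 bases that these 3 share is shown because it contains the bases that tell them apart, in capitals.

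A_55_P2097548: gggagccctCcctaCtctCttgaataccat
A_55_P2081133: gggagccctCcctaTtctTttgaataccat
A_55_P2186027: gggagccctAcctaCtctCttgaataccat

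The window differs at 3 positions. Counted from the first base of A_55_P2097548, the substitutions against A_55_P2081133 over the whole overlap of 44 bases were C15T, C19T, G38T and T41C, and those against A_55_P2186027 over 53 bases were C10A, T41C, A52C and C53A. Signals of Gapdh probes are therefore uncertain as to which copy they report. The main Pgk1 probe was likewise placed at chr3:57906830-57906894 and the main Rps29 probe at chr2:172335003-172335062. The gene model behind these placements was not examined here.

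Before any scaling, the arrays themselves differed. In blood, the 75th percentile of the signal was 110 ± 17.9 (SD, n = 6) in control, 86.4 ± 19.9 in CUMS, 144 ± 29.8 in OVX and 126 ± 14.4 in OVX+CUMS mice. In mPFC it was 651 ± 32.4, 621 ± 9.50, 612 ± 15.1 and 604 ± 24.6 in the same order. The number of arrays limits the precision. Arrays lay on 3 slides per tissue, and control and OVX+CUMS mice shared no slide. Slide 1 held the control mice and 2 CUMS mice, slide 2 held 4 CUMS and 4 OVX mice, and slide 3 held 2 OVX mice and the OVX+CUMS mice. In blood, markers of erythroid cells, platelets, neutrophils and of B, T and NK cells were detected, with the exception of Ngp among 8 neutrophil markers. In mPFC all 7 neuron markers and all 5 astrocyte markers were detected. Detection alone did not separate the tissues. All 6 oligodendrocyte, 3 of 7 neuron and 2 of 5 astrocyte markers were detected in blood too, and 4 of 6 erythroid markers in mPFC. A lower level in such tissue RNA cannot be told apart from fewer cells of a type that expresses the gene.

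The blood of 1 OVX+CUMS mouse, number 5, stood apart. The summed signal of the neutrophil markers, in log2 relative to the 75th percentile, was 11.82 in that mouse and between 8.33 and 9.92 in the other 23. Its monocyte sum was 7.46, against 5.12 to 6.18 in the others. The 3 members Gapdh, Gusb and Pgk1 were also highest there, as described below, and the calls and orders that change without this mouse are given with them. The part of cell makeup in these results was not tested.

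In blood, before scaling, each of the 9 members was on average brightest in OVX mice and dimmest in CUMS mice. Hprt, for example, had a signal of 566, 814 and 1232 (lowest, median and highest of 6) in control mice, 182, 518 and 831 in CUMS, 872, 1201 and 1926 in OVX, and 672, 1068 and 1179 in OVX+CUMS mice. All 6 OVX mice were above all 6 CUMS mice, with no overlap. Tbp showed the same order, with medians of 83.3 in control, 58.9 in CUMS, 133 in OVX and 103 in OVX+CUMS mice. Here too the OVX and CUMS mice did not overlap. For groups that did not overlap, here and below, the share of all detected probes is not given. In a limma model over the 4 groups, adjusted over all 20767 detected probes, 7 of the 9 members differed among groups without scaling, while Actb and B2m did not pass. The background for that test was 69.4% of probes. The OVX effect is the mean of both ovariectomized groups minus the mean of both sham groups, in log2 units. Unscaled, it was above 0 for 9 of 9 members, between 0.20 for Actb and 0.85 for Hprt. It passed the test as a rise for 7 members, with 61.9% of all detected probes rising likewise. The CUMS effect, defined in the same way, was below 0 for 9 of 9 and passed as a fall for 3 (Hprt, Tbp and Ppia), with 41% of all detected probes falling. Pgk1 was at -0.43 with an adjusted p of 0.050 and did not pass.

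The median effects over all detected probes were 0.52 for OVX and -0.30 for CUMS on the unscaled values. Those of the 9 members were 0.52 and -0.39, close to these. The mean of the 9 members per array spanned 0.96 log2 units among the 4 group means before scaling and 0.21 after subtraction of the 75th percentile. Its SD within groups went from 0.42 to 0.18.

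After scaling, 6 of the 9 members in blood showed no difference among the 4 groups that passed the test. Actb, Hprt and Tbp did, 3 of 9, against 72.9% of all detected probes. The 3 that passed moved in different directions.

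**Figure D1:**
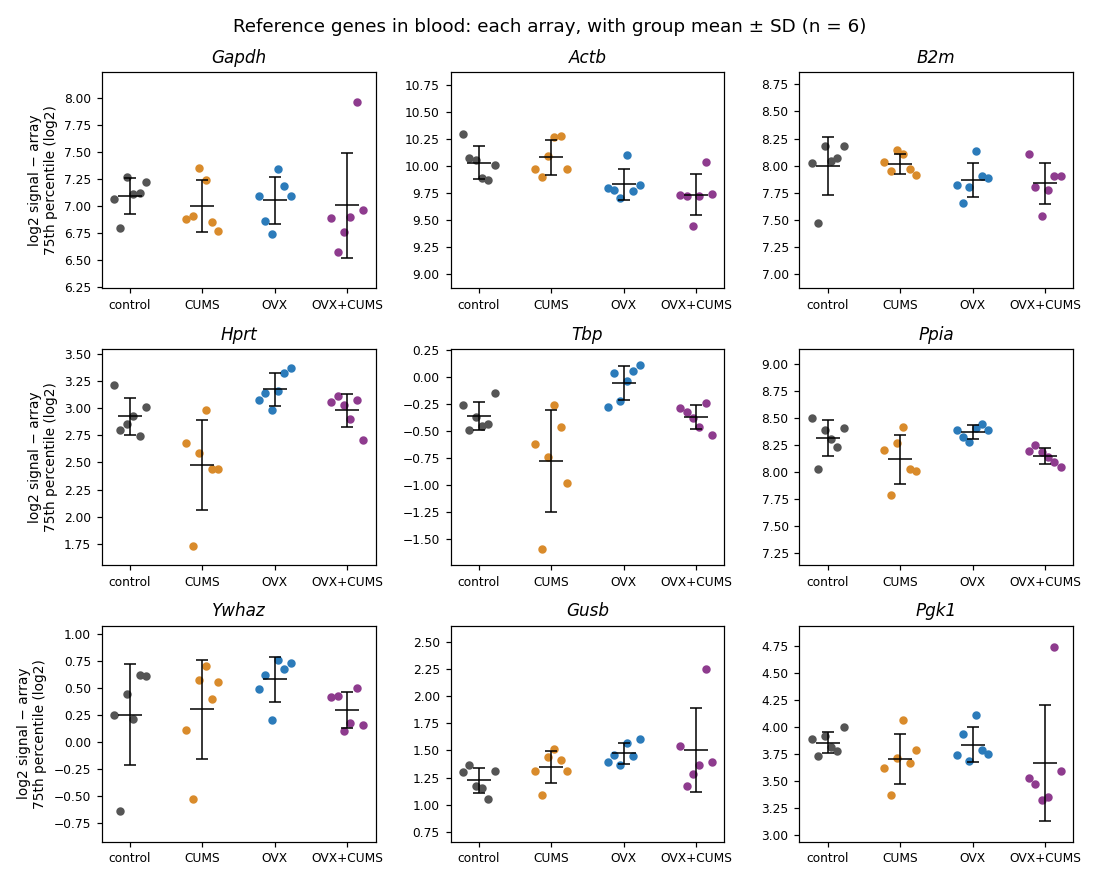
Scaled log2 signal of the 9 reference genes in blood, 1 point per array, by group, with the group mean and SD (n = 6) in black. Every panel spans 2 log2 units. Hprt and Tbp were lowest in CUMS and highest in OVX mice, Actb was lower in both ovariectomized groups, and OVX+CUMS mouse 5 was the highest point for Gapdh, Gusb and Pgk1.

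Actb was lower after ovariectomy. Its scaled log2 signal was 9.87, 10.03 and 10.30 (lowest, median and highest) in control mice, 9.90, 10.04 and 10.28 in CUMS, 9.70, 9.79 and 10.10 in OVX, and 9.45, 9.73 and 10.04 in OVX+CUMS mice. Of the 6 OVX+CUMS mice, 5 were below every control mouse, but the groups overlapped. The OVX effect was -0.27 ± 0.07 (SE, limma adjusted p = 0.0044) and the CUMS effect -0.02 ± 0.07. This fall rests on the scaling: unscaled, the OVX effect of Actb was 0.20 ± 0.14 and did not pass.

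Hprt and Tbp moved together and opposite to Actb. Scaled Hprt was 2.74, 2.89 and 3.22 in control mice, 1.73, 2.51 and 2.99 in CUMS, 2.98, 3.15 and 3.38 in OVX, and 2.71, 3.04 and 3.12 in OVX+CUMS mice. CUMS mice were low and OVX mice high, and the controls and OVX+CUMS mice lay between them with overlap. Its OVX effect was 0.38 ± 0.10 (limma adjusted p = 0.0045) and its CUMS effect fell by 0.32 on the log2 scale (SE 0.10, limma adjusted p = 0.015). Scaled Tbp was -0.50, -0.41 and -0.15 in control mice, -1.59, -0.69 and -0.27 in CUMS, -0.28, -0.0036 and 0.11 in OVX, and -0.54, -0.35 and -0.24 in OVX+CUMS mice. Its OVX effect was 0.36 ± 0.11 (limma adjusted p = 0.0083) and its CUMS effect -0.37 ± 0.11 (limma adjusted p = 0.0092). Without CUMS mouse 2, the lowest for both genes and the array with the lowest 75th percentile of all (54.9), the CUMS effects were -0.25 for Hprt and -0.28 for Tbp and still passed. The summed erythroid markers, detected 6 of 6, ran the other way, with medians of 13.65 in control, 14.05 in CUMS, 13.35 in OVX and 13.42 in OVX+CUMS mice, and the summed B cell markers, detected 5 of 5, ran the same way, with medians of 8.06, 7.49, 8.40 and 8.09. The erythroid sums ranged from 13.43 to 14.17, 13.73 to 14.67, 12.91 to 13.56 and 13.25 to 13.69 in the same order, and the B cell sums from 7.67 to 8.21, 7.08 to 7.87, 8.31 to 8.59 and 7.08 to 8.33. Neutrophil medians (8.91, 8.775, 9.17 and 8.779) ran like the B cell medians, with overlap. Platelet medians (9.62, 9.74, 9.27 and 9.29) ran like the erythroid ones, with overlap. Monocyte (5.84, 5.44, 5.68 and 5.67), T cell (7.01, 6.88, 6.79 and 6.75) and NK cell medians (5.04, 5.02, 4.92 and 4.71) followed neither order and were highest in control mice. The part of these markers in the result was not tested.

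Ppia fell with stress by less. Its scaled log2 signal was 8.03, 8.35 and 8.50 in control mice, 7.79, 8.12 and 8.42 in CUMS, 8.28, 8.39 and 8.44 in OVX, and 8.05, 8.16 and 8.25 in OVX+CUMS mice. All OVX+CUMS mice were below all OVX mice. The CUMS effect was -0.21 ± 0.07 (limma adjusted p = 0.020), although the test over the 4 groups gave a limma adjusted p of 0.062, which was 0.025 without control mouse 2 and 0.018 without CUMS mouse 4.

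In counts, 3 of 9 members passed the test of the OVX effect in blood (Hprt and Tbp higher, Actb lower), with 55.1% of all detected probes passing, and 3 passed that of the CUMS effect (Hprt, Tbp and Ppia, all lower), with 48.5% passing. None passed limma's test of the interaction, where the background was 1.42%. No member had an unadjusted p under 0.05 there, against 3573 of the 20767 probes. None passed the direct comparison of OVX+CUMS with control mice, where the background was 6.26%. In it 2 members, Actb and Gusb, had an unadjusted p under 0.05, against 4456 of the 20767 probes. The largest difference in that comparison was Actb, at -0.30 (95% interval -0.51 to -0.08, limma adjusted p = 0.094). An exact two-sided permutation test of Actb over these 12 mice gave p = 0.0152, where the smallest possible value is 0.00216.

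The remaining 5 members of the panel did not pass these tests, which does not show that they were equal. Gapdh had the smallest spread of group means of all, 0.10, but a SD within groups of 0.30. Its scaled values were 6.79 to 7.27 in control, 6.76 to 7.35 in CUMS, 6.74 to 7.34 in OVX and 6.58 to 7.96 in OVX+CUMS mice. The highest value was that of OVX+CUMS mouse 5, and the next in its group was 6.96. Without this mouse the difference between OVX+CUMS and control mice went from -0.09 to -0.28 (limma adjusted p = 0.22). Pgk1, the other glycolytic enzyme, was at 4.74 in the same mouse and at most 3.59 in the other OVX+CUMS mice. With it, Pgk1 differed by -0.19 between OVX+CUMS and control mice and did not pass. Without it, the difference was -0.40 ± 0.11 (limma adjusted p = 0.030), and the CUMS effect of Pgk1, at -0.27, and its test over the 4 groups (limma adjusted p = 0.00876) also passed. Actb passed the same comparison without this mouse, at -0.36 (limma adjusted p = 0.042).

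Gusb was at 2.26 in OVX+CUMS mouse 5 and at 1.17 to 1.54 in the other 5. Its 6 OVX mice, at 1.37 to 1.61, did not overlap the 6 control mice, at 1.05 to 1.36. Its OVX effect was 0.20 ± 0.09 (limma adjusted p = 0.067), 0.13 without OVX+CUMS mouse 5 (limma adjusted p = 0.094) and 0.24 without OVX+CUMS mouse 2, when it passed (limma adjusted p = 0.037). Relative to control mice, OVX+CUMS mice were higher by 0.28 with mouse 5 (limma adjusted p = 0.222) and by 0.13 without it (limma adjusted p = 0.486). B2m was at 8.00 ± 0.27 (SD, n = 6) in control, 8.02 ± 0.09 in CUMS, 7.87 ± 0.16 in OVX and 7.84 ± 0.19 in OVX+CUMS mice. Control mouse 2, at 7.47, was the lowest of all, and without it the OVX effect of B2m was -0.21 and passed (limma adjusted p = 0.018), against -0.15 with it. Ywhaz had the largest SD within groups, 0.35. Control mouse 2 and CUMS mouse 2 were at -0.64 and -0.53, and the other 22 mice lay between 0.10 and 0.76.

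**Figure D2:**
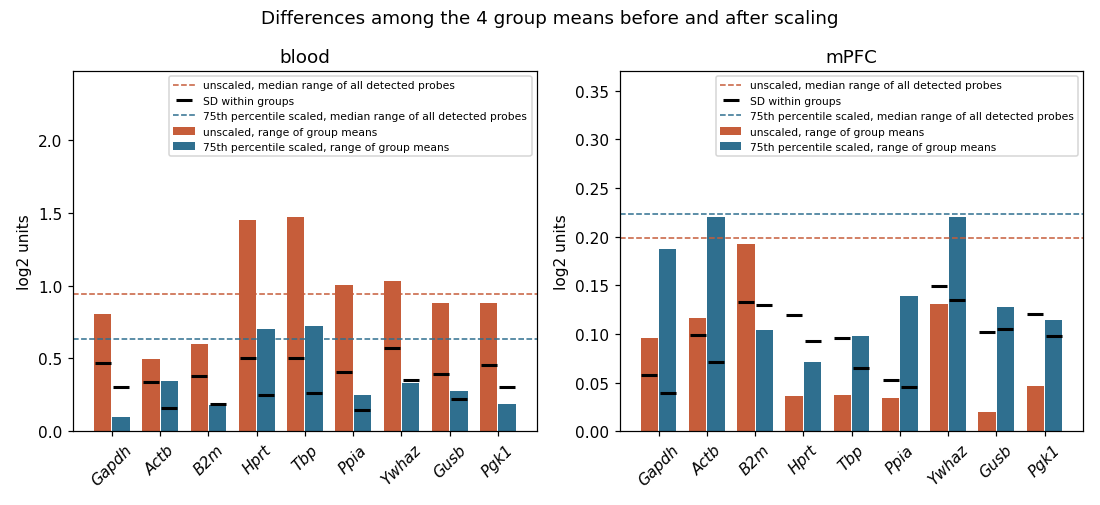
Largest difference between any pair of the 4 group means (bars, log2 units) for each reference gene before and after subtraction of the 75th percentile, with the SD within groups as black marks and the median range over all detected probes as dashed lines. The vertical scales differ. Scaling lowered the bars in blood for each of the 9 genes, from 0.50 to 1.47 before to 0.10 to 0.72 after, and in mPFC it raised those of 8, all but B2m.

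The order of the genes by group difference depended on the scaling. Unscaled in blood, the range of the 4 group means was 0.50 for Actb, 0.60 for B2m, 0.80 for Gapdh, 0.88 for Gusb and Pgk1, 1.00 for Ppia, 1.03 for Ywhaz, 1.45 for Hprt and 1.47 for Tbp. No step between neighbours in that order exceeded the larger of their SDs within groups, which were 0.34 to 0.57. After scaling the order was Gapdh (0.10), B2m (0.18), Pgk1 (0.19), Ppia (0.25), Gusb (0.28), Ywhaz (0.33), Actb (0.35), Hprt (0.70) and Tbp (0.72). Only the step from Actb to Hprt, 0.35, was larger than the SD within groups of both genes. The neighbours within the first 7 and within the last pair did not differ beyond their spread. By SD within groups after scaling, Ppia was lowest at 0.15, followed by Actb at 0.16 and B2m at 0.19, and Ywhaz was highest at 0.35. Adding the ranks for range and SD placed B2m and Ppia first, each with a sum of 5, and Tbp and Ywhaz last, each with 15. This order was not stable. Without OVX+CUMS mouse 5, B2m had the smallest range, Gusb the smallest SD and Gusb came first by rank sum. With normexp background correction Actb came first, Ywhaz and Tbp next and Pgk1 last. The median range over all detected probes was 0.63 and the median SD 0.28, and 7 of 9 members were below the first and 6 of 9 below the second.

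A ratio of 2 genes on the same array needs no scaling. The widely used pairwise measure of stability, geNorm M, is the mean SD of the log2 ratios of a gene to each of the others over the 24 arrays. It was lowest in blood for Ppia at 0.263, followed by Pgk1 at 0.292 and Gusb at 0.297, and highest for Ywhaz at 0.337. With normexp background correction Tbp had the lowest M in blood and Hprt the highest. Hprt and Tbp kept nearly the same ratio, with group means that spanned 0.12 log2 units and a SD over 24 arrays of 0.12, the lowest of the 36 pairs. Actb over Tbp gave the widest range of group means, 0.97, and Actb over Hprt was next at 0.95. The log2 ratio of Actb to Hprt averaged 7.11 ± 0.12 (SD, n = 6) in control, 7.61 ± 0.34 in CUMS, 6.65 ± 0.19 in OVX and 6.75 ± 0.23 in OVX+CUMS mice. On these values, the pair that moved most closely together thus consisted of the genes with the largest group differences. The Tbp probe was dim in blood, with a median signal of 92.2 and a lowest of 18.2. With normexp, Hprt had the largest range of group means, but Tbp had the smallest SD within groups. The OVX and CUMS effects of both genes with normexp are not given here. These values are descriptions and were given no test.

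**Figure D3:**
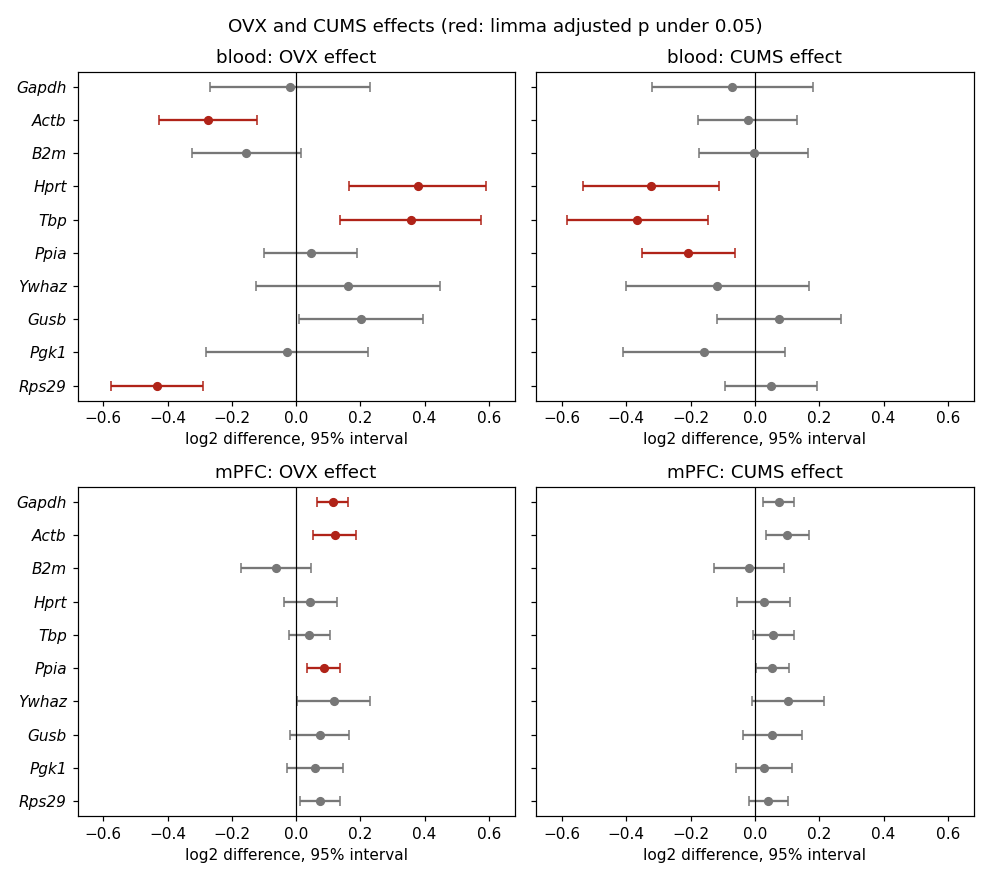
OVX and CUMS effects (log2 difference, points, with 95% intervals from limma) of the 9 reference genes and Rps29 on scaled values in blood and mPFC. Red marks an adjusted p under 0.05 over all detected probes. In blood Hprt and Tbp were right of 0 for OVX and left of 0 for CUMS, while Actb and Rps29 were left of 0 for OVX. In mPFC the effects were at most 0.12 in size.

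Rps29, a component of the small ribosomal subunit, moved in blood like Actb. Its scaled log2 signal was 9.19, 9.26 and 9.39 in control mice, 9.16, 9.36 and 9.65 in CUMS, 8.70, 8.85 and 9.10 in OVX, and 8.82, 8.87 and 8.99 in OVX+CUMS mice. Both ovariectomized groups were below both sham groups with no overlap. The OVX effect was -0.43 ± 0.07 (limma adjusted p = 0.000122). The other 2 Rps29 probes fell with OVX as well, by 0.26 and 0.31 on the log2 scale. Unscaled, the effect was 0.04 ± 0.10 and did not pass, so the fall is relative to the 75th percentile of the array. With slide as a block it was -0.27 and did not pass.

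The slide bears on these results, since it is partly confounded with group. With slide as a block, the CUMS effects of Hprt, Tbp and Ppia in blood were -0.55, -0.60 and -0.29 and still passed, and Ywhaz joined them at -0.43. The OVX effect of no member passed, and those of Hprt and Tbp changed sign, to -0.07 and -0.11, with 95% intervals that spanned 0. The share of all detected probes that passed with slide as a block is not given here. Within slide 2, which held 4 CUMS and 4 OVX mice, Hprt was lower in CUMS than in OVX mice by -0.48 (95% interval -0.81 to -0.15) and Tbp by -0.49 (-0.87 to -0.11). Within slide 3, OVX+CUMS mice were below the 2 OVX mice by -0.37 for Hprt and -0.45 for Tbp. Within slide 1, the 2 CUMS mice were below the 6 control mice by -0.72 for Hprt and -0.75 for Tbp. The size of these differences rests largely on CUMS mouse 2, the dimmest blood array, at 1.73 for Hprt and -1.59 for Tbp. The other CUMS mouse on slide 1 was at 2.68 and -0.63, against control means of 2.93 and -0.36. For Ywhaz CUMS mouse 2 was at -0.53 and the other mouse at 0.11. No fit with slide as a block and without CUMS mouse 2 is given here. The stressed mice were below the unstressed ones on each of the 3 slides for both genes, though on slide 2 they also differed in surgery. Of these, only the differences on slide 2 passed the test, where 10842 of all 20767 detected probes passed. On slides 1 and 3, 0 of the 20767 probes passed. Conversely, no slide held an ovariectomized group beside its sham counterpart.

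The 8 Gapdh probes differed among themselves. In blood, 7 had OVX effects between -0.02 and 0.20, none of which passed. The remaining probe, A_55_P2088912, fell by 0.61 on the log2 scale (95% interval -0.89 to -0.33, limma adjusted p = 0.0011). It is placed at chr6:125112979-125113038 on the minus strand, starts at base 391 of the Gapdh transcript and begins caaaagggtcatcatctccgccccttctgc. It lists the Gapdh mRNA, 2 non-coding RNA accessions and an Ensembl transcript. In mPFC its OVX effect was 0.04 and did not pass, while 5 of the 8 Gapdh probes rose, by 0.08 to 0.20. Whether Gapdh passed in blood therefore depended on the probe. The other probes of Ywhaz and Gusb did not pass for OVX in blood either. In mPFC the second Gusb probe, A_52_P160936, rose by 0.19 with OVX (limma adjusted p = 0.0055), where the main probe did not pass. The second Tbp probe could not be used in blood, at a median signal of 6.70 there and present on 1 of 24 arrays, so the Tbp result in blood rests on 1 probe.

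**Figure D4:**
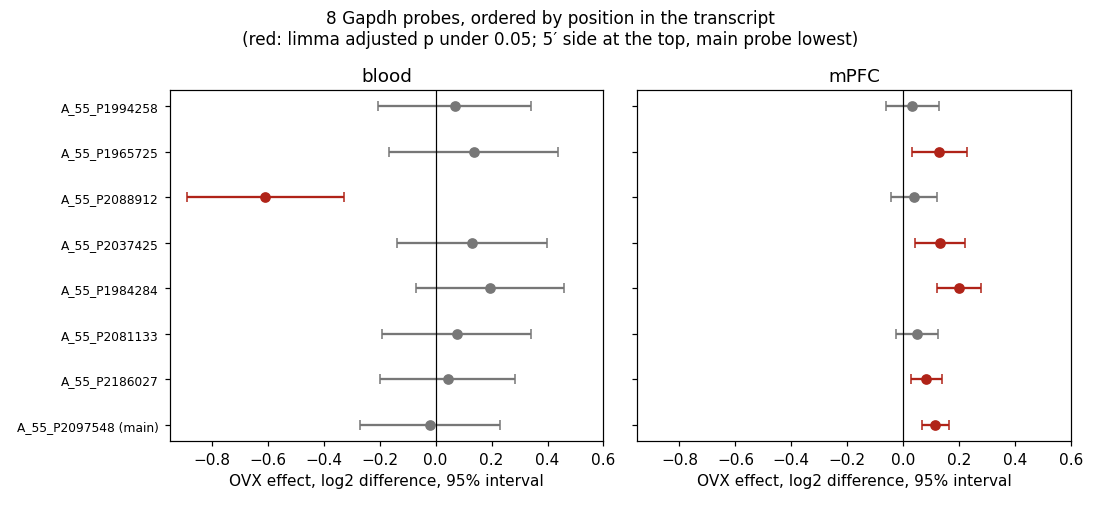
OVX effect (log2 difference, with 95% interval from limma) of the 8 Gapdh probes in blood and mPFC, ordered by position in the Gapdh transcript with the main probe lowest. Red marks an adjusted p under 0.05. In blood 1 probe fell by 0.61 and the other 7 intervals contained 0. In mPFC 5 probes were red, all right of 0.

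In mPFC the members varied far less. Before scaling no member differed among the 4 groups, with 21.7% of the 28358 detected probes doing so. The range of group means was 0.03 or 0.04 for Ppia, Hprt and Tbp, 0.02 for Gusb, and at most 0.19 (B2m). The mean of the 9 members spanned 0.01 log2 units among the group means, with a SD within groups of 0.07. After scaling it spanned 0.12 with a SD of 0.04, as the 75th percentile itself spanned 0.11. On scaled values, 3 of 9 members differed among groups (Gapdh, Actb and Ppia), against 34.8% of all detected probes. Ppia lost this call without control mouse 1 (limma adjusted p = 0.052), and Ywhaz gained it without CUMS mouse 1, CUMS mouse 2 or OVX+CUMS mouse 6 (0.025 to 0.044). CUMS mice 1 and 2 lay on slide 1 with the controls and averaged 2.41 for Ywhaz, against 2.68 for the CUMS mice on slide 2.

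On scaled values, Gapdh in mPFC had the least spread within groups of any member. Unscaled, the SD of Ppia was smaller (0.053 against 0.058 for Gapdh), and with the spike-in median that of Actb was smallest. The scaled log2 signal of Gapdh was 8.84, 8.87 and 8.90 in control mice, 8.94, 9.04 and 9.05 in CUMS, 9.02, 9.05 and 9.11 in OVX, and 9.01, 9.04 and 9.13 in OVX+CUMS mice. The control mice lay below all mice of the other 3 groups. All control mice lay on slide 1. Some cell marker sums differed between groups as well. The summed T cell markers, 3 of 6 detected (Cd3d, Cd3g and Cd8a were not), were at 3.40 to 3.62 in control, 2.78 to 3.58 in CUMS, 2.74 to 2.92 in OVX and 2.80 to 2.99 in OVX+CUMS mice. Their medians were 3.53, 2.83, 2.85 and 2.85. The NK cell sums, 2 of 4 detected, were at 1.28 to 1.61, 0.92 to 1.39, 0.80 to 0.99 and 0.66 to 1.00, with medians of 1.36, 0.99, 0.91 and 0.89. For both, the CUMS range reached the controls, but the CUMS median was near those of the ovariectomized groups. The microglia sums, 5 of 5 detected, were at 4.63 to 4.80, 4.59 to 4.99, 4.87 to 5.07 and 4.77 to 5.09, and only OVX mice did not overlap the controls. Neuron sums overlapped among all groups, at 8.91 to 9.17. Their part in the result was not tested. The SD within groups, 0.04, was below that of all but 0.046% of detected probes. With such a small spread a shift of 0.19 between OVX+CUMS and control mice passed (limma adjusted p = 0.000198), and the exact permutation test gave its smallest possible p of 0.00216. Unscaled, the same difference was 0.08 (95% interval -0.01 to 0.17) and did not pass.

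Actb and Ppia followed. Scaled Actb was 7.98, 8.02 and 8.12 in control, 8.03, 8.12 and 8.15 in CUMS, 8.08, 8.11 and 8.15 in OVX, and 8.12, 8.25 and 8.40 in OVX+CUMS mice. The OVX+CUMS mice lay above the control mice, though by little for the lowest of them. Scaled Ppia was 8.76, 8.84 and 8.90 in control, 8.81, 8.92 and 8.95 in CUMS, 8.89, 8.93 and 8.97 in OVX, and 8.94, 8.95 and 9.03 in OVX+CUMS mice. The OVX+CUMS mice lay above all control mice for Ppia too. The share of all detected probes separated in this way is not given here, so these separations cannot be set against the whole array. The OVX effect passed for the same 3 genes, at 0.11 for Gapdh, 0.12 for Actb and 0.09 for Ppia, with 31% of all detected probes passing. No CUMS effect passed in limma's test, against 4.21%. For 3 members its unadjusted p was under 0.05, against 6561 of the 28358 probes. No interaction passed, against 4.53%. For 1 member (Gapdh) its unadjusted p was under 0.05, against 6594 of the 28358 probes. The CUMS effects of Gapdh and Actb were near the threshold: without CUMS mouse 1 they were 0.08 and 0.11 and passed, as did the Gapdh interaction at -0.16. The same 3 passed without CUMS mouse 2. CUMS mice 1 and 2 were those that lay on slide 1 with the controls. They averaged 8.96 for Gapdh and 8.03 for Actb, against 9.04 and 8.13 for the 4 CUMS mice on slide 2. The control means were 8.87 and 8.03. Leaving out either mouse thus gives slide 2 more weight in the CUMS group. Actb also passed for CUMS without OVX+CUMS mouse 3. OVX+CUMS differed from control mice for 4 members, Gapdh, Actb (0.22), Ppia (0.14) and Ywhaz (0.22), all higher, against 33.5%. For Ywhaz the exact permutation test gave p = 0.0238, and its call was lost when any 1 of 6 arrays was left out (limma adjusted p from 0.051 to 0.089): control mouse 1 or 6, or OVX+CUMS mouse 1, 2, 4 or 5. In the other direction, the OVX effect of Ywhaz (0.14) passed without OVX+CUMS mouse 6, and for OVX+CUMS against control mice B2m (-0.16) passed without OVX+CUMS mouse 6, Gusb (0.17) without OVX+CUMS mouse 4, and Tbp without CUMS mouse 1 (0.10) or OVX+CUMS mouse 3 (0.13).

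**Figure D5:**
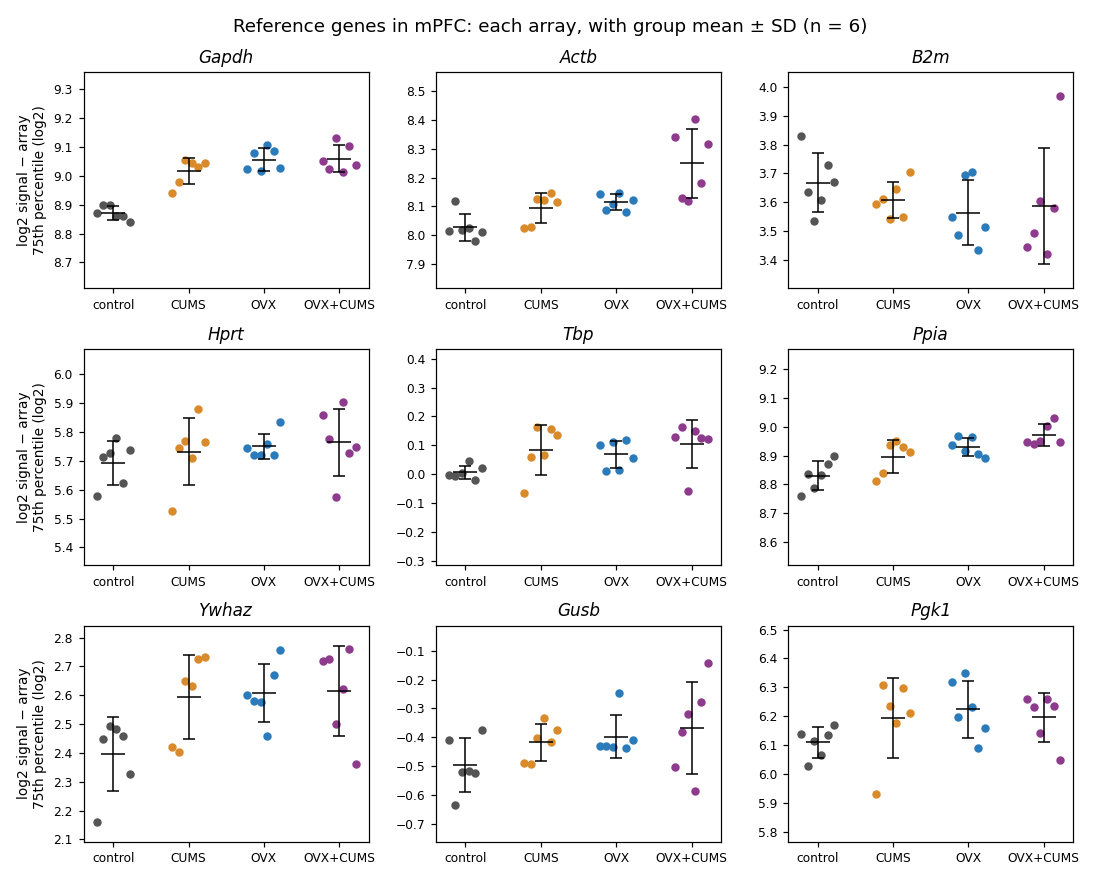
Scaled log2 signal of the 9 reference genes in mPFC, 1 point per array, by group, with the group mean and SD (n = 6) in black. Every panel spans 0.75 log2 units. Control mice lay below all other mice for Gapdh, and OVX+CUMS mice lay above control mice for Gapdh, Actb and Ppia.

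These rises in mPFC depended on the scaling and on the slide. None of the 9 members passed any of these tests without scaling or with slide as a block. Without scaling 21.7% of all detected probes differed among groups, and for the slide block that share is not given here. With the spike-in median in place of the 75th percentile the OVX effects of Gapdh, Actb and Ppia were -0.02, -0.02 and -0.05. On that scale B2m was the only member to pass, with an OVX effect of -0.20 (limma adjusted p = 0.0095). The share of all detected probes that passed on that scale is not given here, so the count cannot be set against the whole array. Unscaled B2m had medians of 8011 in control, 7506 in CUMS, 7139 in OVX and 6987 in OVX+CUMS mice, and 5 of 6 OVX+CUMS mice were below every control mouse. The difference of -0.19 (95% interval -0.35 to -0.03) did not pass (limma adjusted p = 0.085).

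By range of group means on scaled values, the order in mPFC was Hprt (0.07), Tbp and B2m (0.10), Pgk1 (0.11), Gusb (0.13), Ppia (0.14), Gapdh (0.19), and Ywhaz and Actb (0.22). Only the step from Ppia to Gapdh, 0.05, exceeded the SD of both neighbours. Hprt and Tbp, the last in blood, were thus first here on scaled values. Unscaled, the smallest ranges were those of Gusb (0.02) and Ppia (0.03), followed by Hprt and Tbp (0.04 each). With the spike-in median Actb came first by rank sum and Hprt next to last. By geNorm M the order was Ppia (0.095), Tbp (0.099), Gapdh (0.106), Hprt (0.112), Actb (0.118), Pgk1 (0.121), Gusb (0.132), Ywhaz (0.156) and B2m (0.176). Ppia had the lowest M in both tissues on these values, but in blood not with normexp, as given above. The ratios of the 36 pairs had a median SD over 24 arrays of 0.122 in mPFC and 0.304 in blood. All 9 members were below the median range (0.22) and the median SD (0.15) of all detected mPFC probes.

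Effects were compared between tissues over 17544 probes that passed the detection rule in each of them, treating the mouse as a random block. Tissue, RNA kit and slides cannot be told apart for levels, but effects within each tissue can be compared. Of the 9 members, 4 had at least 1 effect that differed. The OVX effect was lower in blood than in mPFC for Actb by -0.39 (95% interval -0.55 to -0.24) and higher for Hprt by 0.33 (0.12 to 0.55) and Tbp by 0.32 (0.10 to 0.53), with 39.1% of all probes passing that test. The CUMS effect was lower in blood for Hprt (-0.35), Tbp (-0.42) and Ppia (-0.26), with 51.4% passing. The difference of OVX+CUMS from control mice was lower in blood for Actb (-0.52) and Ppia (-0.30), with 15.2% passing. The differences for Actb rest on the scaling: without it the one for OVX was 0.15 and with the spike-in median 0.09, and neither passed. The OVX+CUMS difference was then -0.21 and -0.20 for Actb and 0.0092 and 0.012 for Ppia, and none passed. Those of Hprt and Tbp for OVX, and of Hprt, Tbp and Ppia for CUMS, kept their sign and passed on both scales. For Gapdh, B2m, Ywhaz, Gusb and Pgk1 no difference between tissues passed on scaled values, whereas without scaling the OVX difference of each of them passed, at 0.41 to 0.67. Without scaling, 12539 of all 17544 probes passed that OVX test. On scaled values the 95% intervals still allowed, for example, -0.38 to 0.11 for the OVX effect of Gapdh and -0.51 to 0.07 for the CUMS effect of Ywhaz.

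Other genes of the same functions give the setting. Their counts stand beside 55.1% of all detected probes passing for OVX and 48.5% for CUMS in blood, and 31% and 4.21% in mPFC. Of 22 other candidate reference genes, Rps29 among them, all detected in both tissues, 6 rose and 4 fell with OVX in blood and 2 rose and 14 fell with CUMS, with median effects of 0.11 and -0.26. Over all detected probes the medians were 0.04 and -0.03. Polr2a, the large subunit of RNA polymerase II, moved most, at -0.62 with OVX and 0.45 with CUMS, and Canx, a chaperone of the endoplasmic reticulum, rose by 0.48 with OVX. In mPFC, 8 of the 22 rose and 1 fell with OVX, among them Rps18 (0.23) and Cyc1 (0.19), and none passed for CUMS.

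Among 14 glycolysis genes in blood, 3 rose and 2 fell with OVX, with Pfkp at 0.49 and Eno1 at -0.38, and 2 fell with CUMS, Ldhb by 0.39 on the log2 scale. The medians were 0.15 and -0.12. In mPFC 8 of the 14 rose with OVX, among them Tpi1 (0.27), Pkm2 (0.22) and Pfkm (0.15). Of 7 genes of MHC class I presentation, the pathway of B2m, 5 rose with OVX in blood, among them the peptide transporter gene Tap2 at 0.46, and all 7 fell with CUMS, among them Tap1 (-0.38) and the immunoproteasome gene Psmb9 (-0.40). The medians were 0.23 and -0.32, and B2m itself had effects of -0.15 and -0.0043. Of 6 other cyclophilins, 3 rose with OVX in blood, Ppid (0.48), Ppih (0.43) and Ppig (0.42), and 3 fell with CUMS, with medians of 0.31 and -0.25, while Ppia did not pass for OVX. Of the 7 detected of 8 general transcription factors, 3 rose and 1 fell with OVX, with Taf1 at 0.54 and Gtf2b at 0.41, and 5 fell with CUMS, with Gtf2f1 at -0.43. The medians were 0.18 and -0.27. Of 6 purine salvage genes none passed for OVX in blood and 2 fell with CUMS, Ada (-0.31) and Aprt (-0.31), with medians of 0.13 and -0.09. Of 8 actin cytoskeleton genes 2 rose with OVX in blood, Tmsb10 (0.38) and Pfn1 (0.35), the opposite sign to Actb, and 1, Tmsb10, fell with CUMS (-0.26), with medians of 0.04 and -0.13. Of 6 14-3-3 genes, 1, Sfn, rose with OVX (0.36), and with CUMS 1, Sfn again (0.34), rose and 2 fell, among them Ywhaq (-0.38). The medians were 0.10 and -0.14. Of 8 detected lysosomal hydrolase genes 3 rose and 1 fell with OVX, and 1, Ctsb, rose (0.55) and 4 fell with CUMS, among them Arsa (-0.46), with medians of 0.15 and -0.23.

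The gene whose scaled signal ran most like a member's over the 24 arrays was sought among all detected probes. In blood it was Timm23 for Hprt (r = 0.979), Cenpo for Tbp (0.966), Tax1bp3 for Gapdh (0.950), Mvp for Pgk1 (0.948), Rap1gds1 for Ppia (0.935), Rnpep for Gusb (0.927), 2900097C17Rik for Ywhaz (0.913), Actg1, the other cytoplasmic actin, for Actb (0.883) and 2010002N04Rik for B2m (0.864). In mPFC it was H2-K1, a heavy chain that pairs with B2m, for B2m (0.868), Rltpr for Gapdh (0.953), Nkain2 for Ywhaz (0.939), Zmat2 for Ppia (0.919), Rab5a for Hprt (0.904), Gm5113 for Actb (0.892), Gm5537 for Pgk1 (0.885), Slc25a14 for Tbp (0.861) and Jak3 for Gusb (0.857). Arrays of a group share treatment and slides, so these are descriptions over 24 arrays.

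The effect of the reference on a target was computed for Cidec, Rnase1, Slc36a1 and Styxl1, whose human counterparts were measured by RT-qPCR in blood of patients. The choice of these genes drew on these mouse arrays together with arrays of patients, so their change is given without a test, as the log2 difference of OVX+CUMS minus control mice after division by each reference. Cidec, a lipid droplet protein, was at 0.96 relative to the 75th percentile, and at 0.68 relative to Gusb, 0.91 to Hprt, 1.12 to Ppia, 1.26 to Actb and 1.35 to Rps29. Its 2 groups did not overlap relative to Actb, B2m, Hprt, Tbp, Ppia and Rps29, and overlapped relative to Gapdh, Ywhaz, Gusb and Pgk1. Rnase1, a secreted ribonuclease, ran from 1.00 (Gusb) to 1.67 (Rps29), with overlap of the groups relative to Gapdh, Ywhaz, Gusb and Pgk1. In control mice Cidec and Rnase1 were dim, on average at -2.07 and -1.78 relative to the 75th percentile. Slc36a1, a proton-coupled amino acid transporter, was at -0.35 relative to the 75th percentile and at -0.63 relative to Gusb, -0.41 to Hprt, -0.26 to Gapdh, -0.05 to Actb and 0.03 to Rps29. The value of 0.03 was well within its pooled SD of 0.16. The probe of Styxl1 was not detected in blood, so no ratio is given. With normexp background correction the difference of Cidec relative to the 75th percentile was 0.40, and it ran from 0.16 relative to Gusb to 0.58 relative to Rps29, with overlap of the groups for the 75th percentile and every reference. Rnase1 then ran from 0.42 relative to Gusb to 0.84 relative to Rps29. Its groups stayed apart only relative to Actb, Tbp, Rps29 and the 75th percentile. With the same correction Slc36a1 was below 0 relative to every reference, from -0.62 for Gusb to -0.19 for Rps29.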

How the data were processed

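Blood and mPFC RNA of 24 mice was labelled with Cy3 and hybridized to single-colour Agilent arrays. The deposited scanner files hold background-subtracted intensity (gProcessedSignal) written, per the file headers, by version 10.7.3.1 of Feature Extraction. The authors also deposited a table of normalized log2 values, shifted by the 75th percentile, which served as an alternative. Here log2 intensity was used as it is (unscaled) and after subtraction of the 75th percentile of each array (scaled). Of 55681 probes, those present on all 24 arrays of a tissue and above a signal of 50 on at least 2 were tested: 20767 in blood, 28358 in mPFC. Groups were compared with limma 3.58.1 in R 4.3.3, with Benjamini-Hochberg adjustment over all tested probes and a threshold of 0.05. Exact two-sided permutation tests used scipy 1.17.1. The 2 tissues were compared in 1 fit with the mouse as a random block. No spot was saturated (0 spots). Samples were grouped by the labels.

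The members and lists were chosen with earlier results of these data known. Each member was named by its brightest probe detected in both tissues. From each other list up to 3 genes with the largest effects past the threshold were named, and for each member the gene with the highest Pearson r. The value of 1 of these genes is not reported here. Alternatives covered scaling, background, detection filter, the authors' values, moderation, slide, replicate number, probe choice and each array left out. The scripts were tested on simulated data.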

Additional observations from a re-analysis of the deposited data

Results flagged for a closer look

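Within groups of 6 mice, the highest or lowest value lay far from the others (Dixon's test at 95%) in 12 of 72 combinations of gene, tissue and group, where chance alone gives about 1 in 20. In blood, OVX+CUMS mouse 5 was at 7.96 for Gapdh, 2.26 for Gusb and 4.74 for Pgk1. Control mouse 2 was at 7.47 for B2m and -0.64 for Ywhaz, and OVX mouse 4 was at 10.10 for Actb. In control mouse 2 the summed platelet markers were at 8.12. In mPFC, control mouse 2 was at 8.12 for Actb, OVX+CUMS mouse 6 at 3.97 for B2m, OVX mouse 6 at 5.83 for Hprt, OVX+CUMS mouse 3 at -0.060 for Tbp, OVX mouse 4 at -0.25 for Gusb and CUMS mouse 1 at 5.93 for Pgk1. All are scaled log2 signals.

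Effects differed between blood and mPFC by limma's test of the difference itself, in log2 units as blood less mPFC. For OVX this was 0.33 for Hprt (limma adjusted p = 0.0125), 0.32 for Tbp (0.0185) and -0.39 for Actb (0.000107). For CUMS it was -0.35 for Hprt (0.00756), -0.26 for Ppia (0.00237) and -0.42 for Tbp (0.00199). For OVX+CUMS against control mice it was -0.30 for Ppia (0.0270) and -0.52 for Actb (0.00067).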

How the results depend on the processing

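The number of members that passed depended mainly on the scaling and the slide. In blood, 7 differed among groups without scaling, against 69.4% of all detected probes. An OVX effect passed as a rise for 7 without scaling, against 61.9% of all detected probes rising. It passed for 5 with the spike-in median and 0 with slide as a block. In mPFC, the number that differed among groups was 0 without scaling (against 21.7% of all detected probes), 1 with the spike-in median, 1 with quantile normalization, 1 with normexp and 0 with slide as a block. For the OVX effect in mPFC these were 0, 1, 0, 0 and 0, and for OVX+CUMS against control mice 0, 1, 1, 2 and 0. A CUMS effect and an interaction in mPFC each passed for 1 member among probes detected on all 48 arrays and for 1 without moderation. Where no share of all detected probes stands beside a count here, the count cannot be set against the whole array. Effects differed between tissues for 9 members without scaling. Of all 17544 probes, 12539 then passed for OVX, 7365 for CUMS and 1936 for OVX+CUMS against control mice. With 1 array left out at a time, 0 to 2 members differed between OVX+CUMS and control mice in blood, and in mPFC 0 to 2 had a CUMS effect and 0 to 1 an interaction. The sign turned for the OVX effect of Actb in blood without scaling (0.20), with the spike-in median (0.075) and with quantile normalization (0.12), and with slide as a block for Hprt (-0.069) and Tbp (-0.11). In mPFC the spike-in median turned the OVX effects of Gapdh (-0.022), Actb (-0.015) and Ppia (-0.050), and the OVX+CUMS differences of Gapdh (-0.073), Actb (-0.040), Ppia (-0.12) and Ywhaz (-0.041), which was -0.21 for Ywhaz with slide as a block. The cause was not tested.

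Equal replicate numbers did not pair mice of different groups: deviations of same-numbered mice had a median r of -0.09 in blood and 0.04 in mPFC. With the number as a replicate block, 3 members differed among groups in blood and 3 in mPFC, as without it. P-values measure the spread between these mice, and control and OVX+CUMS mice shared no slide.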
